A study of Mus musculus with 6 samples.

Results

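RNA of cholesterol synthesis enzymes and of the proteins that control them through SREBP was compared between mature mouse osteoclasts and bone marrow macrophages (BMMs). Such osteoclasts are grown from BMMs, and the labels do not say whether these came from the cultures sampled at day 0. The 26 genes were taken by name from the deposited table of 49315 genes, and each name matched 1 row. They comprise 8 genes for the steps that end in squalene, 10 genes for the steps after squalene, Ggps1 at a branch between them, 5 genes of SREBP control, and Stard4 and Mylip, which act on sterol transport and uptake. Osteoclasts came from BMMs of WT mice kept for 4 days with 75 ng/mL recombinant RANKL and CMG14-12 cell culture supernatant, which supplies M-CSF (3 libraries). BMMs of the same WT genotype were taken untreated at day 0 after growth with a larger share of that supernatant and no RANKL (3 libraries). Cultures of 4 days without RANKL were not analysed here, so RANKL, the M-CSF supply and time in culture cannot be told apart. The labels number the libraries as biological replicates but name no animal or culture, so each p-value reflects the spread of these libraries alone. Neither age nor sex is given for the mice that supplied these cells.

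Cholesterol is built from acetyl units. The mevalonate steps turn these into isoprenoids, farnesyl diphosphate synthase joins them into farnesyl diphosphate, and squalene synthase joins that compound into squalene, the first intermediate used for sterols alone. Squalene is then oxidized, closed into lanosterol and trimmed to cholesterol. The transcription factors encoded by Srebf1 and Srebf2 drive these genes when membrane cholesterol is low. They are held in the endoplasmic reticulum by Scap and the Insig proteins when sterols are plentiful. In osteoclasts the branch before squalene is known for a drug target, since nitrogen-containing bisphosphonates inhibit farnesyl diphosphate synthase and so limit the prenylation of small GTPases.

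Values are TPM, a length-scaled share of each library's transcripts set to a fixed total of 1000000. Such shares keep no record of sequencing depth, so the depth behind each value is unknown. Genes were tested on log2(TPM + 1) with limma, and p-values were adjusted by the Benjamini-Hochberg method over the 12325 genes whose mean reached 1 TPM. A log2 fold change is osteoclasts minus BMMs on that scale, and a gene was called higher or lower at an adjusted p under 0.05. The identity of the cultures was checked against marker genes. All 10 osteoclast markers were higher in osteoclasts, with a summed level of 38249 to 38837 TPM in osteoclasts and 333 to 354 TPM in BMMs. Of 10 macrophage markers, 8 were lower, and 1, Cd68, was higher, a call that was lost under median-ratio scaling and quantile normalization. The lower call of Lyz2 was lost under quantile normalization (log2 fold change -0.09, adjusted p = 0.44 from limma). Markers of other cells also moved. The 9 neutrophil markers summed to 14.4 to 26.3 TPM in osteoclasts, 2 of them at 0 there, and to 2961 to 3232 TPM in BMMs. The 8 stromal markers summed to 169 to 212 TPM in osteoclasts and to 11.2 to 11.9 TPM in BMMs. Of these, 5 were higher, Runx2 did not pass, and Cxcl12 and Lum, at 0 in both groups, were not tested. Col1a1, Sparc and Col1a2 made up most of the osteoclast sum, at means of 85.6, 62.2 and 34.0 TPM. The part of these cells in the results was not tested, and in bulk RNA fewer cells of a type and less RNA per cell cannot be told apart. The 8 proliferation genes summed to 733 to 770 TPM in osteoclasts and 959 to 976 TPM in BMMs, with 1 higher, 2 lower and 5 not passing the test. Pcna made up the difference in these sums, since the other 7 summed to 385 to 419 TPM in osteoclasts and 385 to 397 TPM in BMMs. The higher call among these genes, that of Ccnb1, was lost under median-ratio scaling and quantile normalization.

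Most of the 26 genes were lower in osteoclasts, by a modest amount, while 1 was higher. All 26 passed the filter on low values. By limma, 15 were lower in osteoclasts (57.7% of the 26), where 23.5% of all genes tested were, and 1 was higher, where 45.3% of all genes were. The other 10 did not pass. The median log2 fold change was -0.37 over the 26 genes and 0.19 over all genes tested, and 25 of the 26 lay below the median of all genes. The same 15 genes had all osteoclast libraries below all BMM libraries, a pattern found in 26.1% of all genes tested, and Insig2 alone had all osteoclast libraries above, as did 47.4% of all genes. Among the 19 enzymes, 12 were lower, 0 were higher by limma (0 also at an unadjusted p under 0.05) and 7 did not pass. The 12 do not include an enzyme at an absolute log2 fold change of 1 or more, and among the 26 genes Mylip alone passed that size.

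**Figure D1:**
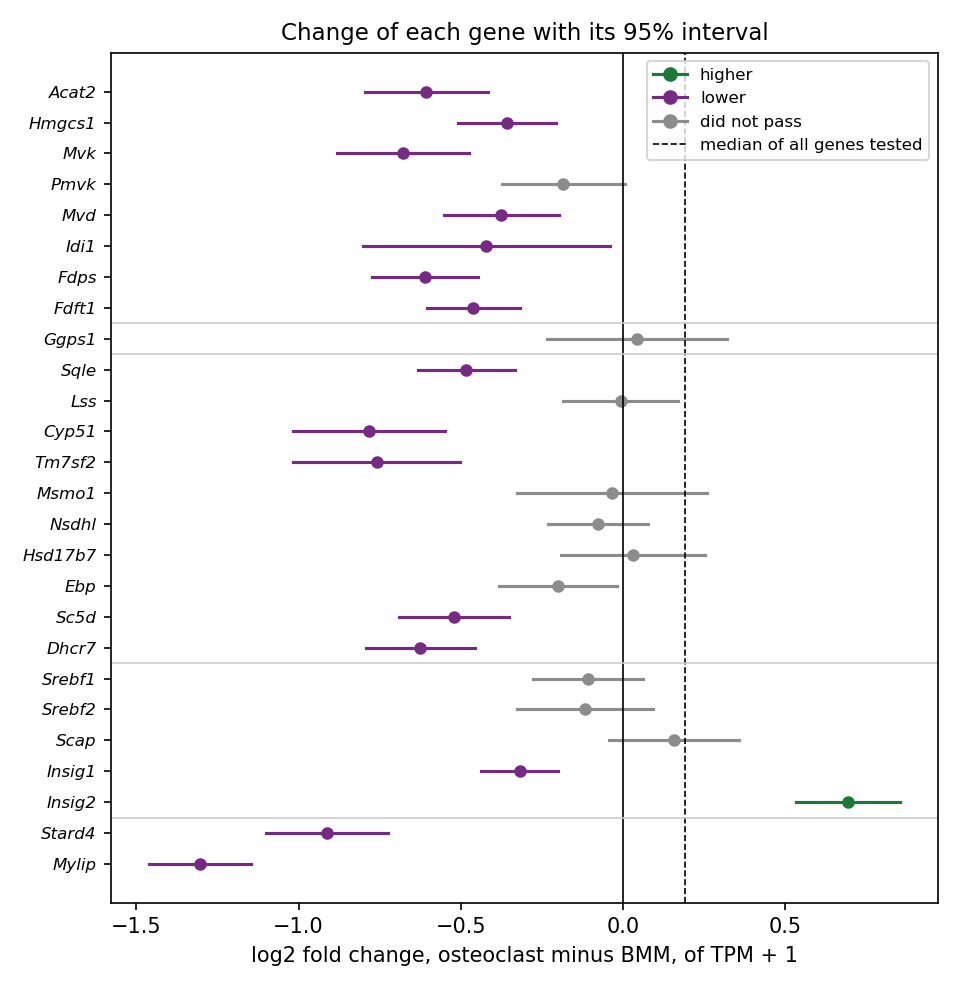
Log2 fold change (osteoclasts minus BMMs, log2(TPM + 1), x axis) of each of the 26 genes (y axis, in pathway order) with its 95% confidence interval from limma, 3 libraries a group. Purple marks genes called lower, green a gene called higher and grey genes that did not pass. The 15 purple points lie left of 0, Insig2 lies right of 0, and the dashed line marks the median of all genes tested at 0.19.

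Promoter sequence was read for the genes matched in a table of promoters from RefSeq (GRCm38.p6), as 250 bases before and 50 after each start. There were 30 such windows for 22 of the 26 genes. No window was read for Sqle, Fdps, Stard4 and Fdft1. Letters of the sterol response element to which SREBP binds were searched as TCACNCCA, those of the NF-Y box as CCAAT and those of the E-box as CACGTG, each on both strands, and none of these letter patterns overlaps another where it occurs below. TCACNCCA was in 3 of the 30 windows (10%) and in 4.36% of all 32851 windows. CCAAT was in 21 of the 30 (70%) and in 37.4% of all windows, and CACGTG in 6 of the 30 (20%) and in 7.15% of all windows. A match is a description of these letters and not a bound site. The sequences below are the stretches before the start, 5′ to 3′ on the gene's strand, with the matches in capitals, on the build named above. Hmgcs1 and Srebf2 are shown because they are among the 3 genes with TCACNCCA (Msmo1 is the other), Mvk for its 5 CCAAT boxes in either direction (ATTGG is the reverse complement), and Insig1 and Insig2 because the RNA of these paralogs moved in opposite directions.
Hmgcs1, chr13:119690171-119690350, plus strand: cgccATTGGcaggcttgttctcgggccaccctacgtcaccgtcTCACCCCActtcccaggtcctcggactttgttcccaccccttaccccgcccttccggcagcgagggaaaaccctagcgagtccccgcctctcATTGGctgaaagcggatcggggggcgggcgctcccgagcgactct
Mvk, chr5:114444089-114444268, plus strand: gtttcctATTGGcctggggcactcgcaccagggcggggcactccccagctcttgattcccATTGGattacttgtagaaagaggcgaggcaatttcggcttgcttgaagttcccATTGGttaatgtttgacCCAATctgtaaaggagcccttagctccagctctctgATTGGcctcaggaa
Srebf2, chr15:82147089-82147180, plus strand: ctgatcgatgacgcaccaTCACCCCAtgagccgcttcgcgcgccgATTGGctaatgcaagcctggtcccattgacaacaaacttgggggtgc
Insig1, chr5:28071232-28071362, plus strand: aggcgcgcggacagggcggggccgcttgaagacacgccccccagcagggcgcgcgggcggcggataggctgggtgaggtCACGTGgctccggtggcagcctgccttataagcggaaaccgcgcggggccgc
Insig2, chr1:121332590-121332769, minus strand: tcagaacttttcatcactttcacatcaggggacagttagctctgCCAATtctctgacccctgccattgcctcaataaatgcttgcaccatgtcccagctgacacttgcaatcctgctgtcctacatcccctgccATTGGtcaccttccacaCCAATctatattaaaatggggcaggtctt
Of the 3 genes with TCACNCCA, Hmgcs1 was lower in osteoclasts, and Srebf2 and Msmo1 did not pass the test. Srebf2 was called lower under median-ratio scaling and quantile normalization.

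RNA for the steps up to squalene was lower in osteoclasts for 7 of 8 enzymes, and Pmvk did not pass. Log2 fold changes ran from -0.68 to -0.18, with a median of -0.44. Of all genes tested, 23.5% were called lower. Under median-ratio scaling and quantile normalization Pmvk was also called lower. Acat2 (ENSMUSG00000023832, chromosome 17, 12942890 to 12960747 on the minus strand of GRCm38, GENCODE vM21) encodes a cytosolic thiolase that joins acetyl-CoA units. Its level was 12.8, 12.2 and 10.8 TPM in osteoclasts and 19.6, 18.8 and 17.6 TPM in BMMs (log2 fold change -0.61, SE 0.08, adjusted p = 2.5e-04 from limma). The groups were apart, with osteoclasts at 64.0% of the BMM mean. In its annotated transcripts, 19.9% of the 150-base windows also occur in Acat3 or Tcp1 transcripts, so the Acat2 values are uncertain. Acat3 was at most 0.295 TPM in osteoclasts and 0.160 TPM in BMMs, while Tcp1 averaged 156 TPM in osteoclasts and 83.7 TPM in BMMs. Hmgcs1 (ENSMUSG00000093930, chromosome 13, 119690379 to 119708260), the cytosolic HMG-CoA synthase, was the most abundant of the 19 enzymes in each group. It stood at 71.8, 70.8 and 63.0 TPM in osteoclasts against 89.8, 85.1 and 89.1 TPM in BMMs (log2 fold change -0.36, SE 0.07, adjusted p = 0.0014 from limma). Every osteoclast library lay below every BMM library. Of the 150-base windows of Hmgcs1, 6.90% also occur in transcripts of Gm48342, which overlaps it on the other strand. No level of Gm48342 was available, so the Hmgcs1 values are uncertain.

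Of the kinases and the decarboxylase that act on mevalonate, Mvk and Mvd were lower and Pmvk did not pass. Mvk (ENSMUSG00000041939, chromosome 5, 114444269 to 114460591), mevalonate kinase, was read at 15.2, 15.9 and 17.7 TPM in osteoclasts and 28.0, 24.0 and 28.0 TPM in BMMs. The groups were apart (log2 fold change -0.68, SE 0.09, adjusted p = 1.9e-04 from limma). Pmvk (ENSMUSG00000027952, chromosome 3, 89454541 to 89469013), phosphomevalonate kinase, had 27.6, 34.1 and 30.8 TPM in osteoclasts and 33.9, 35.3 and 35.9 TPM in BMMs. The groups overlapped, with the second osteoclast library inside the BMM range, and the log2 fold change of -0.18 had a 95% confidence interval from -0.37 to 0.01 (adjusted p = 0.078 from limma). Mvd (ENSMUSG00000006517, chromosome 8, 122433601 to 122443422), mevalonate diphosphate decarboxylase, measured 52.7, 53.5 and 63.2 TPM in osteoclasts and 72.2, 73.5 and 74.3 TPM in BMMs. All osteoclast libraries were below all BMM libraries (log2 fold change -0.38, SE 0.08, adjusted p = 0.0026 from limma).

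The isomerase and the prenyl synthases complete the steps up to squalene. Idi1 (ENSMUSG00000058258, chromosome 13, 8885501 to 8892451), isopentenyl-diphosphate isomerase, showed 13.6, 13.8 and 8.51 TPM in osteoclasts and 16.2, 16.7 and 15.2 TPM in BMMs. The third osteoclast library was far below the other osteoclast libraries. The log2 fold change was -0.42 (SE 0.16, adjusted p = 0.049 from limma) with all libraries and -0.21 without that one (adjusted p = 0.025), and the call was lost under 7 of 14 alternative settings. Of its 150-base windows, 18.8% also occur in the transcripts of Gm13502 or Gm48574. Fdps (ENSMUSG00000059743, chromosome 3, 89093588 to 89101959), farnesyl diphosphate synthase, was at 19.5, 21.5 and 19.4 TPM in osteoclasts, against 32.5, 31.6 and 29.5 TPM in BMMs. The log2 fold change was -0.61 (SE 0.07, adjusted p = 9.5e-05 from limma), with osteoclasts at 64.4% of the BMM mean and no overlap of the groups. Windows shared with Gm43738, Gm3571 or Gm5873 made up 17.9% of its windows, so the Fdps values are uncertain. Gm43738, on the same strand, averaged 0 TPM in each group. Fdft1 (ENSMUSG00000021273, chromosome 14, 63145150 to 63179578 on the minus strand), squalene synthase, had 22.9, 24.0 and 24.7 TPM in osteoclasts and 32.2, 34.7 and 32.9 TPM in BMMs. The groups did not overlap (log2 fold change -0.46, SE 0.06, adjusted p = 2.4e-04 from limma). Fdft1 exons overlap those of Ctsb on the other strand, and 15.2% of its windows also occur in Ctsb or Gm6781 transcripts. Ctsb averaged 4289 TPM in osteoclasts and 9913 TPM in BMMs. Whether counting used strand is not given in the sources used here, so reads of Fdft1 and of Ctsb cannot be told apart in the overlap and the Fdft1 values are uncertain.

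Ggps1 (ENSMUSG00000021302, chromosome 13, 14050659 to 14063488), geranylgeranyl diphosphate synthase, uses farnesyl diphosphate for the lipid anchor of small GTPases rather than for squalene. Its level was 13.6, 10.7 and 9.74 TPM in osteoclasts and 10.3, 10.7 and 11.7 TPM in BMMs. The osteoclast libraries lay above, within and below the BMM range. The log2 fold change of 0.04 had a 95% confidence interval from -0.24 to 0.32 (adjusted p = 0.77 from limma).

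**Figure D2:**
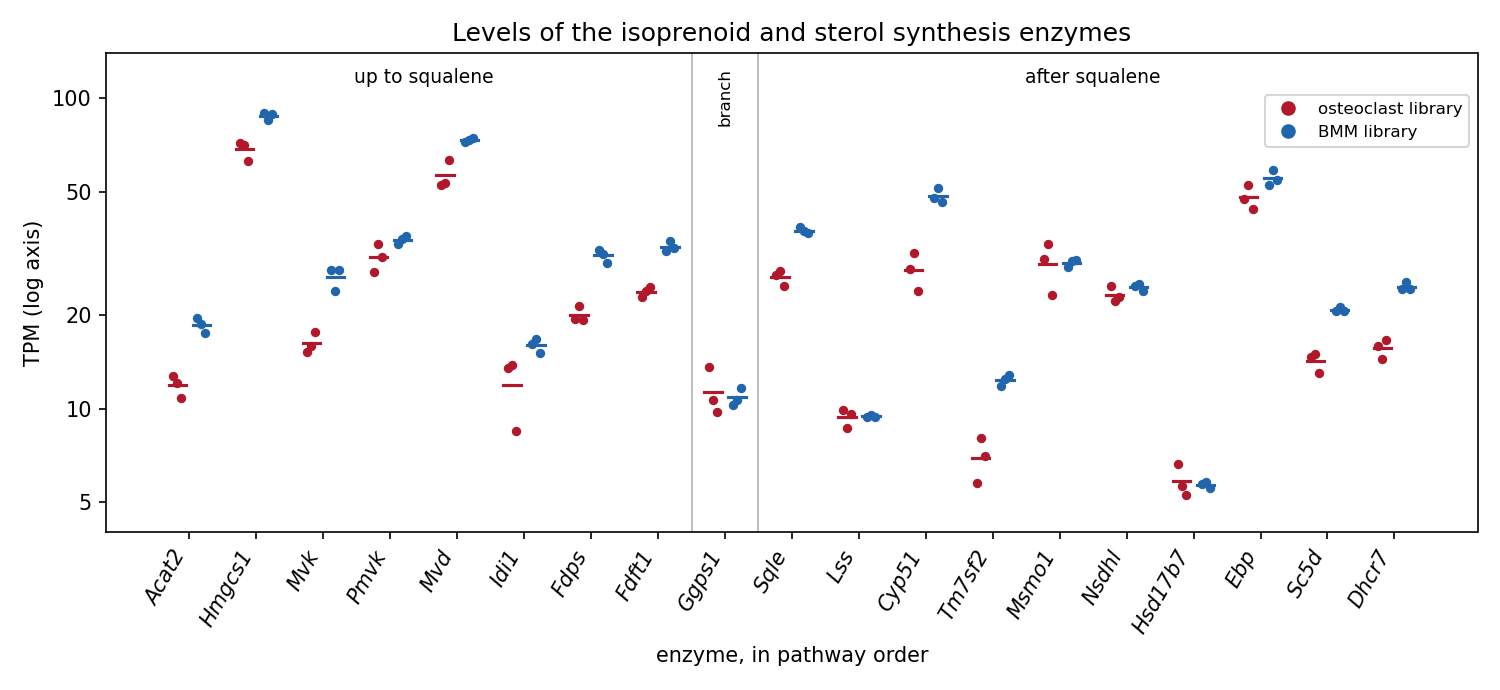
TPM of each of the 19 enzymes (x axis, in pathway order) on a log axis, with each library as a point and the mean of 3 libraries as a short line, osteoclasts left of BMMs. Osteoclast points lie wholly below BMM points for 12 enzymes, among them Cyp51 at 24.0 to 31.8 TPM in osteoclasts and 46.5 to 51.5 TPM in BMMs.

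RNA for the steps after squalene was split, with 5 of 10 enzymes lower in osteoclasts and 5 not passing the test. The 5 that were lower had log2 fold changes from -0.78 to -0.48, and the other 5 ranged from -0.20 to 0.03. Of all genes tested, 23.5% were called lower, and all 10 enzymes lay below the median of all genes, 0.19. The split depended on scaling, since 8 of 10 were called lower under median-ratio scaling and under quantile normalization, with Lss, Nsdhl and Ebp added. Calls over all 12325 genes tested also rose under these scalings, to 4140 and 4259 lower, from 2901 in the main fit. Sqle (ENSMUSG00000022351, chromosome 15, 59315077 to 59331192), squalene epoxidase, a rate-limiting enzyme of the later steps, was at 27.1, 27.8 and 24.8 TPM in osteoclasts and 38.5, 37.4 and 36.7 TPM in BMMs. The groups were apart (log2 fold change -0.48, SE 0.06, adjusted p = 2.3e-04 from limma). Lss (ENSMUSG00000033105, chromosome 10, 76531588 to 76557138), lanosterol synthase, follows it in the pathway. Its values were 9.92, 8.67 and 9.63 TPM in osteoclasts and 9.42, 9.53 and 9.40 TPM in BMMs, with a log2 fold change of -0.01 (95% confidence interval -0.19 to 0.17, adjusted p = 0.94 from limma). The osteoclast libraries lay on either side of the BMM libraries.

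Both enzymes that follow were lower. Cyp51 (ENSMUSG00000001467, chromosome 5, 4081145 to 4104746), lanosterol demethylase, had 28.2, 31.8 and 24.0 TPM in osteoclasts and 47.8, 51.5 and 46.5 TPM in BMMs. Its log2 fold change was -0.78 (SE 0.10, adjusted p = 1.9e-04 from limma), with osteoclasts at 57.6% of the BMM mean and no overlap of the groups. Tm7sf2 (ENSMUSG00000024799, chromosome 19, 6062821 to 6068373), a sterol reductase of the endoplasmic reticulum, measured 5.79, 8.05 and 7.05 TPM in osteoclasts and 11.8, 12.5 and 12.9 TPM in BMMs. The groups did not overlap (log2 fold change -0.76, SE 0.11, adjusted p = 4.0e-04 from limma). It shares 6.39% of its windows with Vps51, which lies on the same strand and averaged 42.1 TPM in osteoclasts and 38.1 TPM in BMMs, so the Tm7sf2 values are uncertain.

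The next 3 enzymes act in turn to remove methyl groups at carbon 4 of the sterol ring, and 0 of the 3 passed the test by limma (0 at an unadjusted p under 0.05). Of all genes tested, 68.9% were called higher or lower. Msmo1 (ENSMUSG00000031604, chromosome 8, 64718139 to 64733792), the methylsterol oxidase, stood at 30.4, 34.0 and 23.2 TPM in osteoclasts and 28.6, 30.0 and 30.1 TPM in BMMs. Osteoclast libraries were both above and below the BMM libraries (log2 fold change -0.03, 95% confidence interval -0.33 to 0.26). Nsdhl (ENSMUSG00000031349, chromosome X, 72918557 to 72958514), the dehydrogenase that follows, was at 24.9, 22.2 and 22.9 TPM in osteoclasts and 24.8, 25.2 and 24.0 TPM in BMMs (log2 fold change -0.08, 95% confidence interval -0.23 to 0.08). Nsdhl was called lower under median-ratio scaling (-0.28, adjusted p = 0.0040 from limma) and quantile normalization (-0.28, adjusted p = 0.0035). Msmo1 and Hsd17b7 did not pass under either. Hsd17b7 (ENSMUSG00000026675, chromosome 1, 169949535 to 169969241), the ketoreductase, was the lowest of the 26 genes in each group. It had 6.62, 5.66 and 5.28 TPM in osteoclasts and 5.72, 5.80 and 5.54 TPM in BMMs, and the groups overlapped (log2 fold change 0.03, 95% confidence interval -0.19 to 0.25).

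The final steps rearrange and reduce the ring. Ebp (ENSMUSG00000031168, chromosome X, 8185329 to 8193512), a sterol isomerase, measured 47.4, 52.6 and 44.2 TPM in osteoclasts and 52.5, 58.8 and 54.6 TPM in BMMs. The second osteoclast library just exceeded the lowest BMM library. The log2 fold change was -0.20 with a 95% confidence interval from -0.38 to -0.02, and the adjusted p of 0.051 from limma just missed the threshold. Sc5d (ENSMUSG00000032018, chromosome 9, 42251595 to 42264256), a sterol desaturase, was at 14.7, 15.0 and 13.1 TPM in osteoclasts and 20.6, 21.3 and 20.7 TPM in BMMs. Dhcr7 (ENSMUSG00000058454, chromosome 7, 143823145 to 143848410), the reductase that makes cholesterol from 7-dehydrocholesterol, had 15.9, 14.5 and 16.7 TPM in osteoclasts and 24.3, 25.6 and 24.2 TPM in BMMs. Neither gene had overlapping groups, and the log2 fold change was -0.52 for Sc5d (SE 0.07, adjusted p = 3.1e-04 from limma) and -0.62 for Dhcr7 (SE 0.07, adjusted p = 1.0e-04).

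Summed RNA was lower in osteoclasts for the enzymes up to squalene and for those after it, and the ratio of these sums did not separate the groups. The 8 genes up to squalene summed to 236, 246 and 238 TPM in osteoclasts and 324, 320 and 323 TPM in BMMs, with osteoclasts at 74.5% of the BMM mean. Summed over the 10 genes after squalene, the level was 211, 220 and 191 TPM in osteoclasts and 264, 278 and 265 TPM in BMMs, with osteoclasts at 77.2%. In each sum all osteoclast libraries were below all BMM libraries. The log2 ratio of the sum up to squalene over the sum after it was 0.16, 0.16 and 0.32 in osteoclasts and 0.30, 0.20 and 0.29 in BMMs. These ratios overlapped, with the third osteoclast library highest and the other osteoclast libraries lowest. The median log2 fold change was -0.44 for the 8 genes and -0.34 for the 10 genes, a difference of -0.10, which became -0.18 without osteoclast replicate 3. Called genes were 7 of 8 up to squalene and 5 of 10 after it, and the difference of these shares was not tested. In the same fit 23.5% of all genes tested were called lower. Under median-ratio scaling, and likewise under quantile normalization, 8 of 8 and 8 of 10 were called lower. These scalings called 4140 and 4259 of all 12325 genes tested lower, against 2901 in the main fit.

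**Figure D3:**
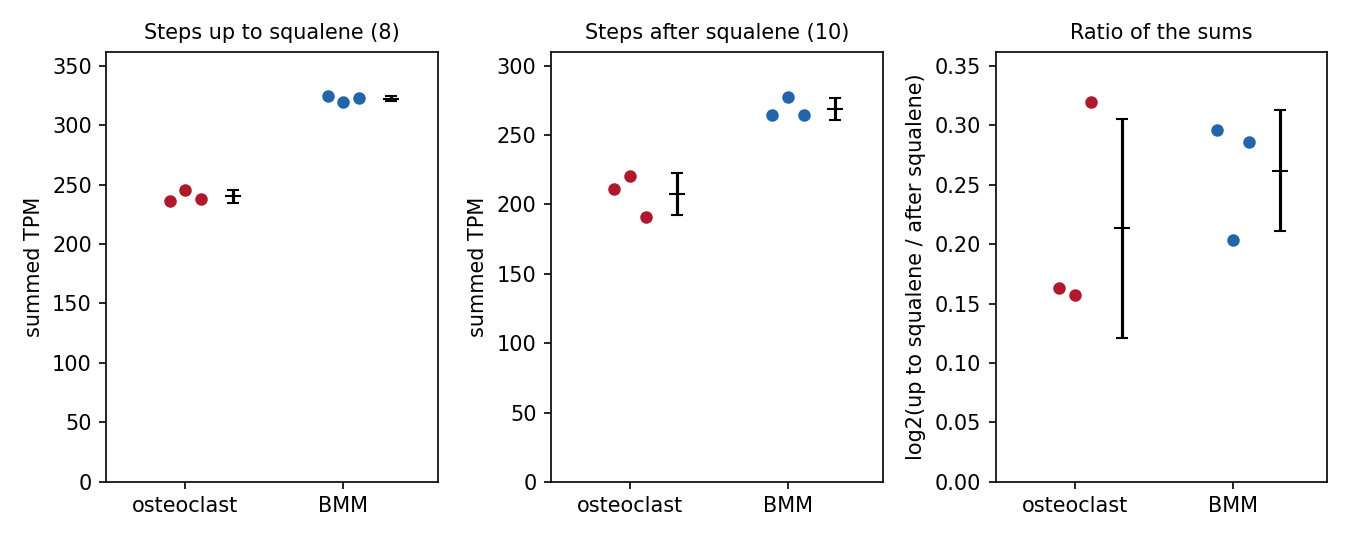
Summed TPM of the 8 enzymes up to squalene and of the 10 enzymes after it, and the log2 ratio of these sums (y axes), for each library as a point beside the mean and SD of 3 libraries in black, osteoclasts left of BMMs. Both sums are lower in osteoclasts (236 to 246 against 320 to 324 TPM, and 191 to 220 against 264 to 278 TPM), and the log2 ratios overlap at 0.16 to 0.32 in osteoclasts and 0.20 to 0.30 in BMMs.

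The spread among libraries was wider in osteoclasts than in BMMs, for these enzymes and for most genes. The coefficient of variation over 3 libraries was larger in osteoclasts for 17 of the 19 enzymes, with a median of 8.27% in osteoclasts and 3.13% in BMMs. It was larger in osteoclasts for 80.1% of genes tested that were detected in both groups, with medians of 10.4% in osteoclasts and 4.00% in BMMs. Of the osteoclast libraries, replicate 3 was lowest for 11 enzymes, replicate 1 for 5 and replicate 2 for 3. It was not lowest throughout, since replicate 3 was also the highest for 4 enzymes, Mvd among them.

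Of the 5 genes of SREBP control, the Insig paralogs moved in opposite directions and the other 3 did not pass the test. Lower calls made up 20% of the 5, beside 23.5% of all genes tested. The 1 higher call stands beside a share of 45.3% over all genes, so these counts do not set the 5 genes apart. The outcome for Srebf1 and Srebf2 depended on scaling, as given below. Insig1 (ENSMUSG00000045294, chromosome 5, 28071363 to 28078662), itself a target of SREBP that retains the Scap complex in the endoplasmic reticulum, was at 77.0, 72.3 and 73.4 TPM in osteoclasts and 94.2, 91.3 and 92.9 TPM in BMMs. All osteoclast libraries were lower (log2 fold change -0.32, SE 0.05, adjusted p = 6.9e-04 from limma). Insig2 (ENSMUSG00000003721, chromosome 1, 121304353 to 121332589 on the minus strand), which retains the same complex, had 40.4, 39.1 and 37.0 TPM in osteoclasts and 22.3, 23.4 and 25.3 TPM in BMMs. This was the member called higher, with osteoclasts at 164% of the BMM mean and a log2 fold change of 0.69 (SE 0.07, adjusted p = 4.0e-05 from limma). The TPM ratio of Insig1 over Insig2 was 1.91, 1.85 and 1.98 in osteoclasts and 4.23, 3.91 and 3.68 in BMMs. The ratios did not overlap, and the log2 ratio averaged 0.94 ± 0.05 in osteoclasts and 1.97 ± 0.10 in BMMs (SD, n = 3 each), a difference of -1.04. Insig1 remained the more abundant paralog in all 6 libraries.

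The SREBP genes themselves were abundant. Srebf2 (ENSMUSG00000022463, chromosome 15, 82147181 to 82205379), which encodes the isoform known mainly for cholesterol genes, was the most abundant of the 26 in each group. Its level was 123, 105 and 137 TPM in osteoclasts and 131, 134 and 129 TPM in BMMs, with osteoclast libraries on either side of the BMM libraries (log2 fold change -0.12, 95% confidence interval -0.33 to 0.09, adjusted p = 0.28 from limma). Srebf1 (ENSMUSG00000020538, chromosome 11, 60199089 to 60222581), whose products are known more for fatty acid genes, measured 49.3, 49.5 and 58.0 TPM in osteoclasts and 56.1, 56.5 and 56.2 TPM in BMMs. The third osteoclast library was above the BMM libraries and the others were below (log2 fold change -0.11, 95% confidence interval -0.28 to 0.06, adjusted p = 0.22 from limma). Without that library both genes were called lower, at -0.18 for Srebf1 and -0.21 for Srebf2. Under median-ratio scaling both were also called lower (-0.32 for Srebf1 and -0.33 for Srebf2, adjusted p = 0.010 and 0.014 from limma). So were both under quantile normalization (-0.32 and -0.34, adjusted p = 0.0079 and 0.013 from limma). The TPM ratio of Srebf1 over Srebf2 was 0.40, 0.47 and 0.42 in osteoclasts and 0.43, 0.42 and 0.43 in BMMs, and these ratios overlapped. Scap (ENSMUSG00000032485, chromosome 9, 110333288 to 110384950), the sterol-sensing escort of SREBP, was at 23.0, 19.9 and 24.8 TPM in osteoclasts and 20.4, 20.3 and 19.5 TPM in BMMs. The second osteoclast library fell within the BMM range and the others exceeded it. The log2 fold change of 0.16 did not pass (95% confidence interval -0.05 to 0.36, adjusted p = 0.14 from limma), and without that library it was 0.24 and was called (adjusted p = 0.0099). Its sign turned under median-ratio scaling (-0.05) and quantile normalization (-0.05), with no call.

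**Figure D4:**
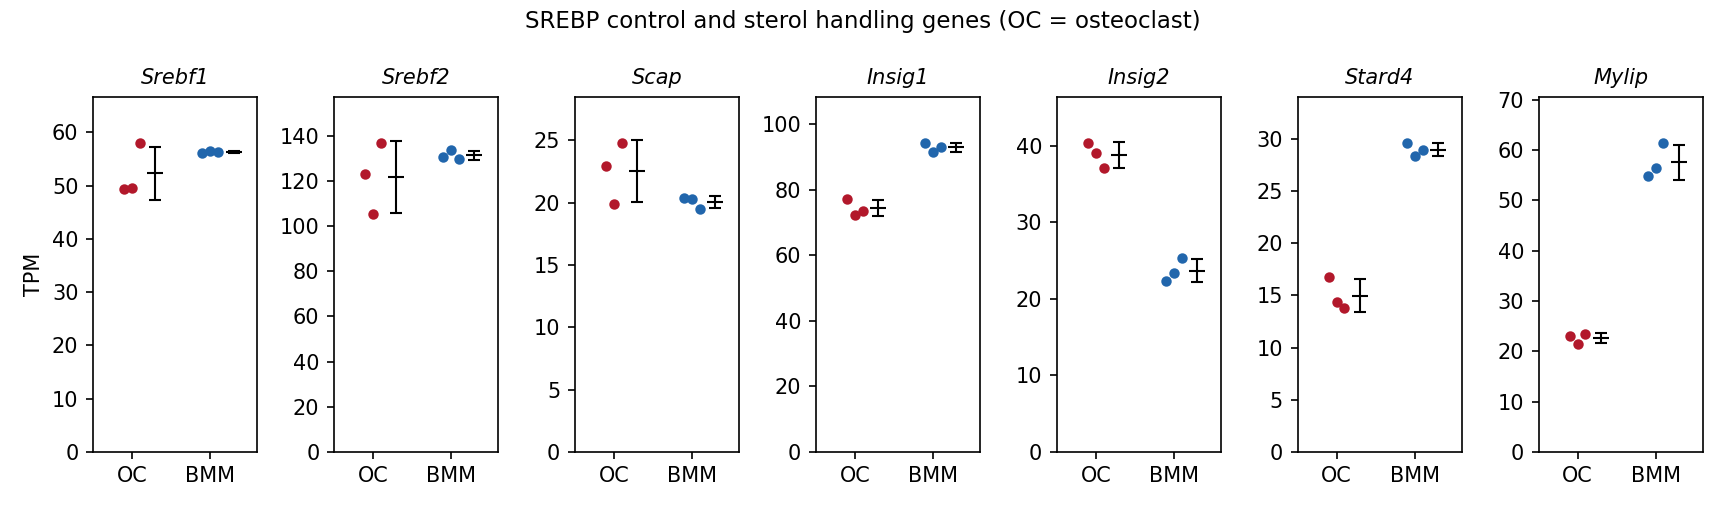
TPM (y axis of each panel, from 0) of the 5 SREBP control genes, Stard4 and Mylip in each library (points) beside the mean and SD of 3 libraries (black), osteoclasts (OC) left of BMMs. Insig2 is higher in all osteoclast libraries (37.0 to 40.4 against 22.3 to 25.3 TPM), Insig1, Stard4 and Mylip are lower in all, and Srebf1, Srebf2 and Scap overlap.

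The largest differences among the 26 were those of the genes that act on sterol transport and uptake. Mylip (ENSMUSG00000038175, chromosome 13, 45389742 to 45412022) encodes Idol, an E3 ubiquitin ligase induced by the sterol-sensing receptor LXR that marks lipoprotein receptors for degradation. It was at 23.1, 21.5 and 23.4 TPM in osteoclasts and 54.7, 56.4 and 61.4 TPM in BMMs. Osteoclasts were at 39.4% of the BMM mean, with no overlap (log2 fold change -1.30, SE 0.07, adjusted p = 9.0e-07 from limma). Stard4 (ENSMUSG00000024378, chromosome 18, 33199355 to 33213862) encodes a cytosolic sterol carrier and is a known SREBP target. Its values were 16.7, 14.4 and 13.8 TPM in osteoclasts and 29.6, 28.3 and 28.9 TPM in BMMs. The groups were apart, and the log2 fold change of -0.91 (SE 0.08, adjusted p = 2.1e-05 from limma) put osteoclasts at 51.7% of the BMM mean.

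Proteins that cut SREBP free or carry sterol-regulated proteins to degradation were counted from the same fit. Of 8 such genes, 4 were higher and 1 was lower, where 45.3% of all genes tested were higher and 23.5% lower, and 3 did not pass, with a median log2 fold change of 0.23 beside 0.19 for all genes tested. Ube2g2, a ubiquitin-conjugating enzyme of the endoplasmic reticulum degradation route, averaged 134 ± 6.32 TPM in osteoclasts and 81.8 ± 4.44 TPM in BMMs (SD, n = 3 each, log2 fold change 0.70). The proteases that release SREBP in the Golgi were both higher. Mbtps1, the site-1 protease, averaged 35.6 ± 3.32 TPM in osteoclasts and 23.1 ± 0.310 TPM in BMMs (log2 fold change 0.60, adjusted p = 2.0e-04 from limma). Mbtps2, the site-2 protease, outside the rule for named genes and chosen after its values were seen, averaged 13.1 ± 1.43 TPM in osteoclasts and 9.56 ± 0.193 TPM in BMMs (log2 fold change 0.41). Rnf139, a sterol-linked ubiquitin ligase, was the gene called lower (log2 fold change -0.28), and Erlin1 had a log2 fold change of 0.01 and did not pass.

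Genes that use the isoprenoids made before squalene were counted in the same way. Of 14 such genes, 6 were higher (45.3% of all genes tested were), 0 were lower by limma (2 at an unadjusted p under 0.05) and 8 did not pass, with a median log2 fold change of 0.14 beside 0.19 for all genes tested. This split depended on scaling, with 4 higher and 4 lower under median-ratio scaling and 3 higher and 5 lower under quantile normalization. Over all 12325 genes tested, median-ratio scaling gave 4134 higher and 4140 lower, and quantile normalization 4090 higher and 4259 lower. Pdss1, a subunit of the synthase for the side chain of coenzyme Q, averaged 9.99 ± 1.49 TPM in osteoclasts and 2.64 ± 0.0860 TPM in BMMs (SD, n = 3 each; log2 fold change 1.59, adjusted p = 5.7e-06 from limma). Rabggtb, the catalytic subunit of Rab geranylgeranyl transferase, averaged 79.3 ± 4.40 TPM in osteoclasts and 36.7 ± 1.42 TPM in BMMs (log2 fold change 1.09, adjusted p = 1.6e-06). Chm and Chml, the escort proteins that present Rab GTPases to that transferase, had the lowest log2 fold changes of the list at -0.18 and -0.31, and neither passed the test (adjusted p = 0.27 and 0.060 from limma).

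Of the other enzymes and isozymes of the pathway, 4 of 6 passed the filter, with 1 higher, 2 lower and 1 not called. In that fit 45.3% of all genes tested were higher and 23.5% lower. Under either other scaling 1 was higher and 3 were lower. Over all 12325 genes tested, median-ratio scaling gave 4134 higher and 4140 lower, and quantile normalization 4090 higher and 4259 lower. Acat1, the mitochondrial thiolase, averaged 120 ± 3.91 TPM in osteoclasts and 46.0 ± 1.02 TPM in BMMs (log2 fold change 1.36, adjusted p = 2.0e-07 from limma), which is the opposite direction to its cytosolic relative Acat2. Lbr, a lamin-binding protein of the nuclear envelope with the same sterol reductase activity as Tm7sf2, averaged 17.6 ± 0.146 TPM in osteoclasts and 25.1 ± 0.385 TPM in BMMs (log2 fold change -0.49, adjusted p = 1.1e-04 from limma).

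Fatty acid genes known as SREBP targets were lower in 6 of 9 cases, with 0 higher by limma (0 also at an unadjusted p under 0.05) and a median log2 fold change of -0.74. Over all genes tested, 23.5% were lower, 45.3% were higher and the median was 0.19. Fads2, a fatty acid desaturase, averaged 8.18 ± 1.07 TPM in osteoclasts and 50.7 ± 0.779 TPM in BMMs (log2 fold change -2.50, adjusted p = 1.3e-07 from limma). Scd1, stearoyl-CoA desaturase, averaged 1.90 ± 0.405 TPM in osteoclasts and 7.41 ± 0.423 TPM in BMMs (log2 fold change -1.54, adjusted p = 8.8e-06). Acly and Acaca, which make and carboxylate cytosolic acetyl-CoA, had log2 fold changes of 0.04 and 0.01 and did not pass.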

How the data were processed

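RNA-Seq libraries of osteoclasts at day 4 (3) and BMMs at day 0 (3) were used. According to the methods and the submitters' notes, paired 150-base reads went through bcl2fastq 2.17 and Trimmomatic 0.36 for trimming, then STAR 2.5.2b for alignment to mm10. The authors deposited TPM per gene and library, each library summing to 1000000. The counting tool, its use of strand, its handling of reads that match several places and the step from hits to TPM: not given in the sources used here. TPM keeps no depth, so no count test and no counting interval could be given.

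Of 49315 rows, 48970 matched GENCODE vM21 on GRCm38, used for coordinates, and 176 lacked a name. The 12325 genes whose mean reached 1 TPM were tested with limma 3.58.1 in R 4.3.3 on log2(TPM + 1), with the intensity trend, empirical Bayes moderation and a two-sided test. Benjamini-Hochberg adjustment covered all genes tested, at 0.05. The pseudocount of 1 TPM understates changes of low genes. The step was tested on simulated data with the same spread in both groups and few changed genes. These data differ in both respects, so that test does not show how the step behaves on them. Members and lists were chosen with earlier results of these data known. Named genes were the 26 members and, of each other list, the 2 largest and 2 smallest log2 fold changes. Some genes of the pathway are not reported here. The alternatives changed the pseudocount (0.1 or 0.5 TPM), the filter (none, or a mean of 5 TPM), the scaling (median-ratio or quantile) or the trend (none), added a replicate block, left out single libraries, or required a log2 fold change of 1 or more in size. Python 3.11.15 with pandas 2.3.3, NumPy 2.4.6 and matplotlib 3.10.9 made the tables and plots.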

Additional observations from a re-analysis of the deposited data

How the results depend on the processing

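Over 14 alternative fits, 15 of the 16 called members kept their direction and call, the exception being Idi1, which lost its call in 7 (adjusted p from 0.0505 with a pseudocount of 0.5 TPM to 0.12 without a filter or without BMM replicate 2). Median-ratio scaling and quantile normalization shifted the median over all genes tested, on the log2 scale, by -0.19 and -0.21. Under them, 21 members were lower and 1 was higher, 8 of 10 steps after squalene were lower under each, and the medians were -0.64 and -0.64 up to squalene and -0.55 and -0.55 after it. The split over all genes was 4134 higher and 4140 lower with median-ratio scaling and 4090 higher and 4259 lower with quantile normalization, against 5585 and 2901. Of members that did not pass in the main analysis, Pmvk, Lss, Nsdhl, Ebp, Srebf1 and Srebf2 were called lower under both scalings. The split of the LXR genes became 1 higher and 4 lower under each, and that of the SREBP processing genes 4 higher and 2 lower. With a log2 fold change of 1 or more in size required, 1 member was lower, 0 were higher, 0 steps up to squalene and 0 after it were lower, and 941 of all genes were lower and 1673 higher. Leaving out 1 library gave 14 to 17 members lower and 1 to 2 higher, 6 to 8 steps up to squalene and 5 to 6 after it lower, 2487 to 2967 of all genes lower and 5045 to 5756 higher. The medians ran from -0.50 to -0.41 up to squalene and from -0.39 to -0.29 after it, their difference from -0.18 to -0.091, the change of the Insig1 over Insig2 log2 ratio from -1.09 to -0.99 and that of Srebf1 over Srebf2 from -0.056 to 0.060. Without osteoclast replicate 2, Scap was higher and Pmvk and Ebp were lower.

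Libraries with the same replicate number did not deviate together (correlations of deviations from the group means of -0.05, -0.003 and -0.07), so the numbers were not taken as a pairing. With the replicate block, 16 members were lower and 1 was higher, Ebp being added (-0.20, adjusted p = 0.041), and 2821 of all genes were lower and 5502 higher. No sequencing depth could be read from TPM, so precision rests on the 3 libraries of each group.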

Other observations

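Genes of cholesterol egress, storage and efflux were counted from the same fit, in which 45.3% of all genes tested were higher and 23.5% lower. Of 10 genes of lysosomal egress and storage, 9 were tested, with 2 higher in osteoclasts, 4 lower and 3 not passing, and a median log2 fold change of -0.19. Under median-ratio scaling 1 was higher and 5 were lower, and under quantile normalization 1 was higher and 6 were lower. Over all 12325 genes tested, these scalings gave 4134 higher and 4140 lower, and 4090 higher and 4259 lower. Lipa, the lysosomal acid lipase that frees cholesterol from its esters, averaged 875 ± 68.2 TPM in osteoclasts and 2044 ± 31.5 TPM in BMMs (SD, n = 3 each, log2 fold change -1.23, adjusted p = 7.6e-07 from limma). Gramd1b, which moves sterol from the plasma membrane to the endoplasmic reticulum, averaged 13.8 ± 2.06 TPM in osteoclasts and 33.7 ± 0.625 TPM in BMMs (log2 fold change -1.24). Osbp, an exchanger of sterol at the Golgi, was higher, with 62.3 ± 2.69 TPM in osteoclasts and 44.7 ± 1.17 TPM in BMMs (log2 fold change 0.47). Npc2, a lysosomal sterol carrier, had a log2 fold change of 0.23 and a call that depended on scaling. The call was lost with median-ratio scaling (0.02, adjusted p = 0.81 from limma) and turned to lower with quantile normalization (-0.10, adjusted p = 0.049).

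Of 6 genes of LXR and its targets, 1 was higher, 2 were lower and 3 did not pass. Nr1h3, which encodes one of the LXR receptors, had 57.8, 53.6 and 65.1 TPM in osteoclasts and 14.8, 16.9 and 18.4 TPM in BMMs (log2 fold change 1.76, adjusted p = 1.4e-06 from limma). Abca1, the cholesterol exporter known as an LXR target, was at 23.8, 15.3 and 23.7 TPM in osteoclasts and 66.0, 66.5 and 68.8 TPM in BMMs (log2 fold change -1.66, adjusted p = 2.5e-05 from limma). Abcg1, another exporter, averaged 59.2 ± 6.72 TPM in osteoclasts and 55.3 ± 4.46 TPM in BMMs (SD, n = 3 each) and did not pass. Nr1h3 was therefore higher, Abca1 and Mylip, also a target of LXR, were lower, and Abcg1 was called in neither direction.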
